A study of Homo sapiens with 12 samples.

Results

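Replication origin licensing prepares each origin of DNA replication to fire once per cell cycle. The genes described here are the 10 that encode its core factors: MCM2, MCM3, MCM4, MCM5, MCM6 and MCM7, whose products form the replicative helicase; ORC1 and CDC6, which mark the origin and open the way for loading; CDT1, which brings the helicase; and GMNN, which encodes geminin, the inhibitor of CDT1. They were found by name among the probe sets of the array that are paired with exactly 1 gene. They are 10 of 13673 genes that had a tested probe set, and 19 of 54613 probe sets that are not controls. Of the 19 probe sets, 17 were bright enough to be tested, with a mean log2 signal over the 12 arrays at or above the 40th percentile (a signal of 49.3). Another 2, 1 each for MCM4 and MCM6, were not, but every gene kept at least 1 tested probe set.

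The cells were U2OS, a line from a human osteosarcoma whose p53 is wild type according to the labels, measured as bulk RNA on Affymetrix U133 Plus 2.0 arrays. There were 4 groups of 3 arrays, all taken at 24 hours: untreated cells, cells in 0.6 µg/ml doxorubicin, cells in 0.1% DMSO, and cells in 10 µM nutlin-3. Untreated cells were the control for doxorubicin, which poisons topoisomerase II and breaks DNA, and the DMSO cells were the control for nutlin-3, which keeps MDM2 from binding p53 and leaves DNA intact. No group carried a transgene or deletion per the labels. The labels do not give a solvent for doxorubicin or a DMSO percentage for nutlin-3. DMSO was taken as the nutlin-3 control from the series design. Whether the replicates of a group came from separate cultures is not stated, so the p-values speak to the spread among these arrays, which may be technical. The design asks how transcript levels under each agent compare with its own control.

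In G1, the origin recognition complex, of which ORC1 is the largest subunit, binds DNA and recruits CDC6 and then CDT1, and together they load the ring of MCM2 to MCM7 around the double helix. Once S phase begins, geminin binds CDT1, CDT1 is also degraded, and CDC6 and ORC1 are held down, so that no origin is loaded again until the next cycle. Genes for most of these factors are known targets of E2F transcription factors. p53 induces CDKN1A, which encodes the cyclin-dependent kinase inhibitor p21 and so keeps the pocket proteins that restrain E2F active. In bulk cultures a smaller share of cells in a cycle phase and less RNA per cell cannot be told apart.

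The labels were checked with CDKN1A and MDM2, both direct p53 targets. CDKN1A had a signal of 1361 ± 34.1 in untreated cells (SD, n = 3, as for all means below), 7678 ± 1114 with doxorubicin, 1507 ± 187 in DMSO and 7470 ± 393 with nutlin-3, and MDM2 had 3500 ± 106, 9408 ± 234, 4419 ± 208 and 19512 ± 883. Arrays of a group correlated at 0.972 to 0.987 over the tested probe sets. Doxorubicin arrays stood apart in 2 of 3 control ratios of 3′ to 5′ signal, which rise when RNA or its copying is incomplete. For ACTB the ratio was 1.53 ± 0.0754 in untreated cells and 3.12 ± 0.577 with doxorubicin, and for the spiked control dap it was 2.84 ± 0.401 and 7.67 ± 3.85 (exact 2-sided permutation p = 0.1 for each, the smallest that 3 against 3 arrays allow). With GAPDH it was 1.02 ± 0.0356 and 1.07 ± 0.116 (exact permutation p = 0.6). The nutlin-3 and DMSO ratios lay at 1.31 ± 0.0260 and 1.28 ± 0.0281 for ACTB and at 2.93 ± 0.200 and 2.89 ± 0.0529 for dap (exact permutation p = 0.2 and 0.8). DMSO arrays in turn lay below untreated arrays with no overlap for ACTB and for GAPDH, which was 0.942 ± 0.0102 in DMSO (exact permutation p = 0.1 for each). Osteoblast markers RUNX2, SPARC and COL1A1 were high, with group means of 970 to 1628 for RUNX2, whereas SP7, IBSP, ALPL and COL1A2 were dim (COL1A2 at 34.9 to 65.4) and SPP1 lay at 112 to 254. Of the 5 leukocyte markers, 4 were on the array with a summed signal of 155 to 246 in untreated cells, 509 to 796 with doxorubicin, 126 to 191 in DMSO and 319 to 421 with nutlin-3. LAPTM5 had a mean of 85.1 in untreated cells, 509 with doxorubicin, 60.8 in DMSO and 258 with nutlin-3. CD14 reached at most 20.4 on any array. The summed signal of 4 endothelial markers lay between 132 and 330 on all arrays, and that of 5 epithelial markers between 19748 and 28877, mostly KRT8 and KRT18. Epithelial EPCAM was about as bright as RUNX2, at 1625 in untreated cells, 1313 with doxorubicin, 1008 in DMSO and 620 with nutlin-3. KRT14 was at 372, 109, 97.2 and 90.8 in the same order, and CDH1 at 70.4 to 98.3. The part of these ratios and markers in the results below was not tested.

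Values are MAS5 signals, linear intensities that the authors had scaled to 1 trimmed mean on all arrays. Changes are differences of log2(signal + 16) from a limma fit of all 12 arrays, with its standard error (SE). Unless another fit or setting is named, each adjusted p below is from that fit, by Benjamini-Hochberg over all 32768 tested probe sets. An adjusted p under 0.05 makes a call. Each gene is counted by its lead probe set, the one with the highest mean.

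With nutlin-3, the signal of every licensing gene fell. All 10 lead probe sets were called lower, against a background of 12.5% of the 13673 genes, and all 17 tested probe sets were called lower, against 9.49% of all tested probe sets. The median change over the 10 genes was -1.16, and over all genes 0.01. The 3 nutlin-3 arrays lay below the 3 DMSO arrays with no overlap for all 17, a pattern that 18.9% of all tested probe sets showed. Mean signals fell to between 35.9% of DMSO for MCM2 and MCM6 and 67.3% for GMNN.

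Of the helicase genes, MCM2, MCM6, MCM5 and MCM3 had the 4 largest falls of the 10. MCM2 gave 4540, 4665 and 4440 in DMSO and 1560, 1598 and 1735 with nutlin-3, a change of -1.47 (SE 0.09, adjusted p = 8.1e-09). MCM3 gave 7203, 6838 and 6994 in DMSO against 2711, 2741 and 2817 (-1.34, SE 0.07, adjusted p = 2.4e-09), with group SDs of 183 and 54.6. MCM5 gave 2793, 2945 and 2947 against 1017, 1127 and 1079 (-1.42, SE 0.09, adjusted p = 1.3e-08). For each of these genes, the brightest nutlin-3 array lay well below the dimmest DMSO array.

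MCM6 gave 6726, 6983 and 6468 in DMSO against 2209, 2545 and 2498 with nutlin-3 (-1.47, SE 0.08, adjusted p = 4.0e-09). MCM4 gave 4022, 3693 and 3845 against 1584, 1956 and 1804 (-1.11, SE 0.09, adjusted p = 2.4e-07). MCM7, whose product sits in the same hexamer, gave 6977, 6562 and 6535 against 3319, 3680 and 3436 (-0.94, SE 0.08, adjusted p = 4.6e-07), the smallest fall of the 6. Read against all genes, MCM6, MCM2, MCM5 and MCM3 lay among the lowest 0.5% of changes: 0.271%, 0.278%, 0.322% and 0.483% of genes had a lower change, against 2.42% for MCM7.

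The loading factors fell as well. CDC6, the ATPase that joins ORC at the origin, gave 2698, 2774 and 2824 in DMSO and 1212, 1257 and 1297 with nutlin-3 (-1.13, SE 0.09, adjusted p = 2.0e-07). CDT1 gave 2537, 2769 and 2808 against 944, 1515 and 1143 (-1.19, SE 0.19, adjusted p = 3.1e-04), with more spread under nutlin-3 than the MCM genes had. ORC1 was dim, at 420, 480 and 445 against 174, 251 and 209 (-1.04, SE 0.15, adjusted p = 9.4e-05).

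GMNN, whose product geminin blocks CDT1, gave 6634, 6462 and 6680 in DMSO and 4235, 4456 and 4618 with nutlin-3, the smallest fall of the 10 (-0.57, SE 0.07, adjusted p = 2.2e-05). The ratio of CDT1 to GMNN within an array, as the difference of their log2 values, fell by 0.62 (nutlin-3 SD 0.31, DMSO SD 0.09), with no overlap between the groups. Taken with the other CDT1 probe set it fell by 0.21 and the groups overlapped, so this unequal fall depends on the CDT1 probe set.

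**Figure D1:**
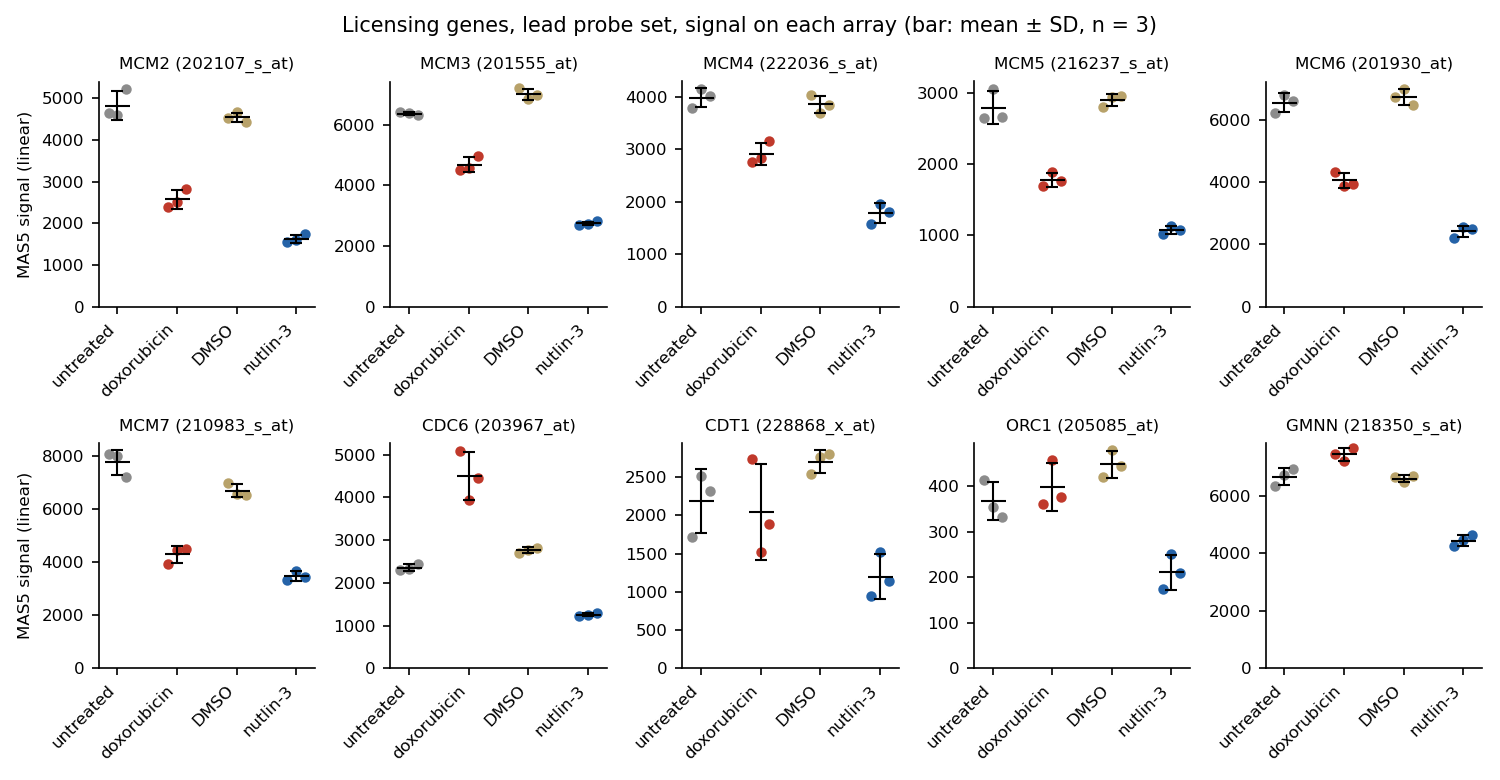
MAS5 signal (linear, vertical axes from 0) of the lead probe set of each licensing gene on each of the 12 arrays, by group; points are arrays, and bars are the mean ± SD of 3 arrays. Nutlin-3 points lie below the DMSO points in every panel, while the doxorubicin points lie below the untreated points for the MCM genes and above them for CDC6 (mean 4495 against 2355).

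With doxorubicin the genes divided. All 6 MCM lead probe sets fell, CDC6 rose, and CDT1, ORC1 and GMNN were not called: 1 gene of 10 called higher and 6 lower, against backgrounds of 29.0% and 24.8% of all genes. In this comparison 53.8% of all genes were called in either direction. By probe set, 2 of 17 were called higher and 10 lower, against 23.4% and 23.6% of all tested probe sets. The median change over the 10 genes was -0.45 and over all genes 0.08. Groups did not overlap for all 6 MCM genes (lower; 26.5% of all genes), nor for CDC6 and GMNN (higher; 32.4%).

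MCM2 gave 4661, 4593 and 5222 in untreated cells and 2390, 2518 and 2824 with doxorubicin, a change of -0.90 (SE 0.09, adjusted p = 3.1e-07). MCM7 gave 8067, 8000 and 7211 against 3912, 4467 and 4476 (-0.86, SE 0.08, adjusted p = 3.0e-07). MCM6 gave 6219, 6803 and 6602 against 4332, 3873 and 3951 (-0.69, SE 0.08, adjusted p = 3.2e-06). These 3 kept between 53.4% and 61.9% of the untreated mean.

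MCM5 gave 2651, 3054 and 2654 in untreated cells and 1695, 1889 and 1762 with doxorubicin (-0.64, SE 0.09, adjusted p = 1.6e-05). MCM4 gave 3781, 4141 and 4009 against 2759, 2833 and 3154 (-0.45, SE 0.09, adjusted p = 7.0e-04), and MCM3 gave 6422, 6375 and 6307 against 4512, 4576 and 4962 (-0.44, SE 0.07, adjusted p = 7.6e-05). By lead probe set, MCM7 thus had the second largest fall of the 6 here and the smallest with nutlin-3. With the probe sets of each gene averaged it was at -0.73 here, after MCM2 (-0.90) and MCM5 (-0.77). With DMSO as the control instead, the MCM7 lead was at -0.64, after MCM2 (-0.82), MCM6 (-0.73) and MCM5 (-0.70). Against untreated cells even MCM2 was not at the extreme among all genes, since 8.15% of genes had a lower change.

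CDC6 rose in every doxorubicin array. Untreated arrays gave 2293, 2330 and 2442 and doxorubicin arrays 5079, 3946 and 4461, so the mean was 191% of the control (0.92, SE 0.09, adjusted p = 4.2e-07). Its second probe set, at 2474, 2422 and 2496 against 3749, 3261 and 3751, rose less (0.54, SE 0.09, adjusted p = 9.1e-05). CDC6 was the only licensing gene called in opposite directions with the 2 agents.

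CDT1 gave 1722, 2523 and 2319 in untreated cells and 2739, 1516 and 1894 with doxorubicin, so that the groups overlapped widely (-0.12, SE 0.19, 95% interval -0.53 to 0.29, adjusted p = 0.65). ORC1 gave 413, 354 and 333 against 361, 458 and 377 (0.11, SE 0.15, interval -0.21 to 0.43, adjusted p = 0.57; -0.065 with arrays centred on their medians). GMNN gave 6343, 6731 and 6915 against 7463, 7194 and 7641, which did not overlap but missed the threshold (0.16, SE 0.07, interval 0.01 to 0.31, adjusted p = 0.082). With arrays quantile-normalised, GMNN was called (0.23, adjusted p = 0.0054), and with arrays centred on their medians it was at -0.02. The intervals leave room for changes of either sign in CDT1 and ORC1.

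The dap and ACTB ratios were lowest of the doxorubicin arrays on array 1, at 3.76 and 2.48. A fit with only that array of its group was added after the data were seen. It takes the spread from the other groups and assumes that the lone array varies like them, so its calls say little about doxorubicin replicates. It called 37.2% of all tested probe sets and the same 7 licensing genes, 7 of 7 shared. CDC6 was at 1.10 and MCM2 at -1.01 in it, while CDT1 was at 0.34 (adjusted p = 0.25) and ORC1 at -0.02. The ratios moved with doxorubicin, and their part in these values was not tested.

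**Figure D2:**
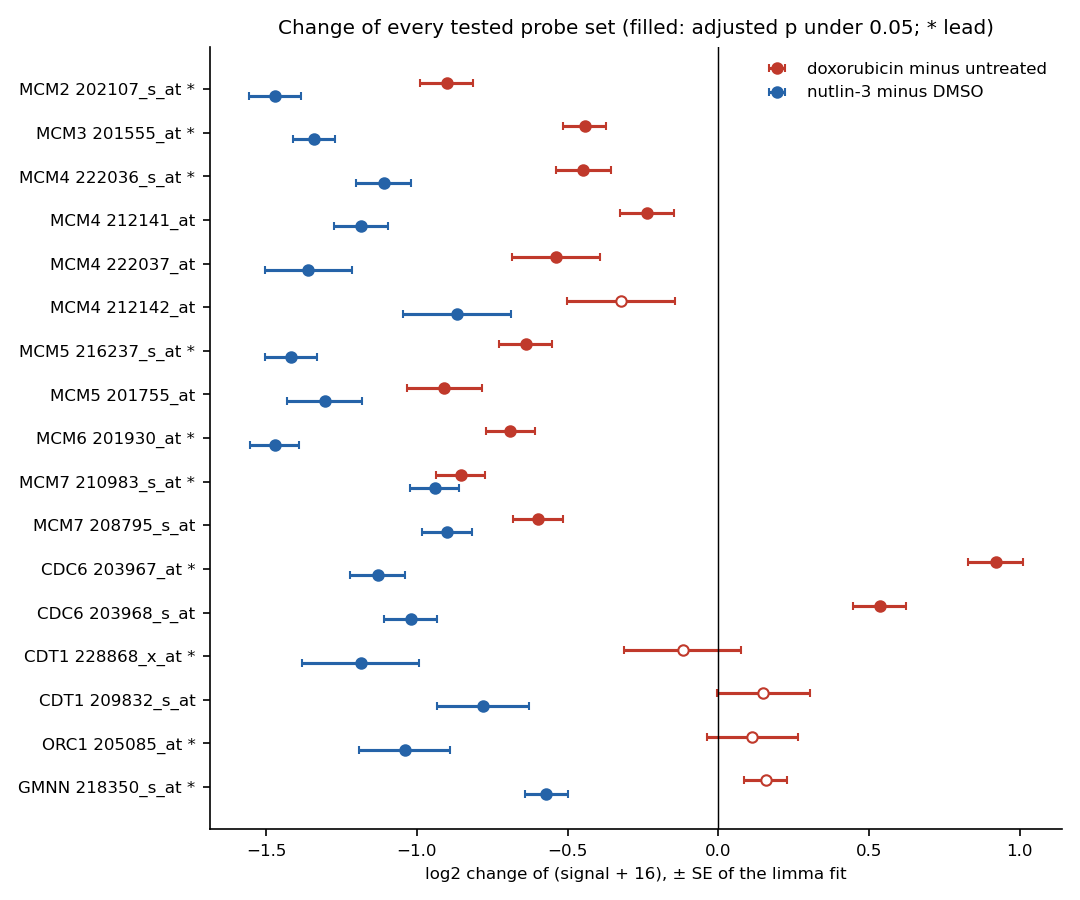
Log2 change of (signal + 16), with its SE from the limma fit, for the 17 tested probe sets, doxorubicin minus untreated and nutlin-3 minus DMSO; filled points have an adjusted p under 0.05, and an asterisk marks the lead probe set. All 17 nutlin-3 points are below 0, whereas with doxorubicin the MCM points are below 0 and both CDC6 points above it.

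The responses to the agents were compared as the doxorubicin change minus the nutlin-3 change, which shares no control array between its parts. It was called higher for 9 of 10 genes, against 20.2% of all genes, and for 13 of 17 probe sets, against 15.3% of all tested, with a gene median of 0.78 against 0.07 over all genes. CDC6 differed most, at 2.05 (SE 0.13, adjusted p = 1.9e-08), and 98.7% of genes had a lower difference. ORC1 differed by 1.15 (SE 0.21, adjusted p = 6.4e-04), CDT1 by 1.07 (SE 0.27, adjusted p = 0.0073) and MCM3 by 0.90 (SE 0.10, adjusted p = 6.4e-06). MCM5, MCM6, GMNN, MCM4 and MCM2 differed by 0.78, 0.78, 0.73, 0.66 and 0.57. For MCM2 the call is lost when arrays are centred on their medians (0.42, adjusted p = 0.088).

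The lead probe set of MCM7 was the exception. Its difference was 0.09 (SE 0.12, adjusted p = 0.62), with a 95% interval of -0.16 to 0.33, so a difference as large as that of the other MCM lead probe sets lies outside it. The other MCM7 probe set gave 0.30 (interval 0.05 to 0.55, adjusted p = 0.064), and it was called without doxorubicin array 1 (0.38, adjusted p = 0.020) or nutlin-3 array 1 (0.35, adjusted p = 0.038), with quantile normalisation (0.35, adjusted p = 0.035) and with a filter at the 60th percentile (0.30, adjusted p = 0.0499). The small difference of the lead depends on the controls, since it was lower in DMSO than in untreated cells (-0.21, not called). With DMSO as the control of both agents, the lead was at -0.64 with doxorubicin and -0.94 with nutlin-3.

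**Figure D3:**
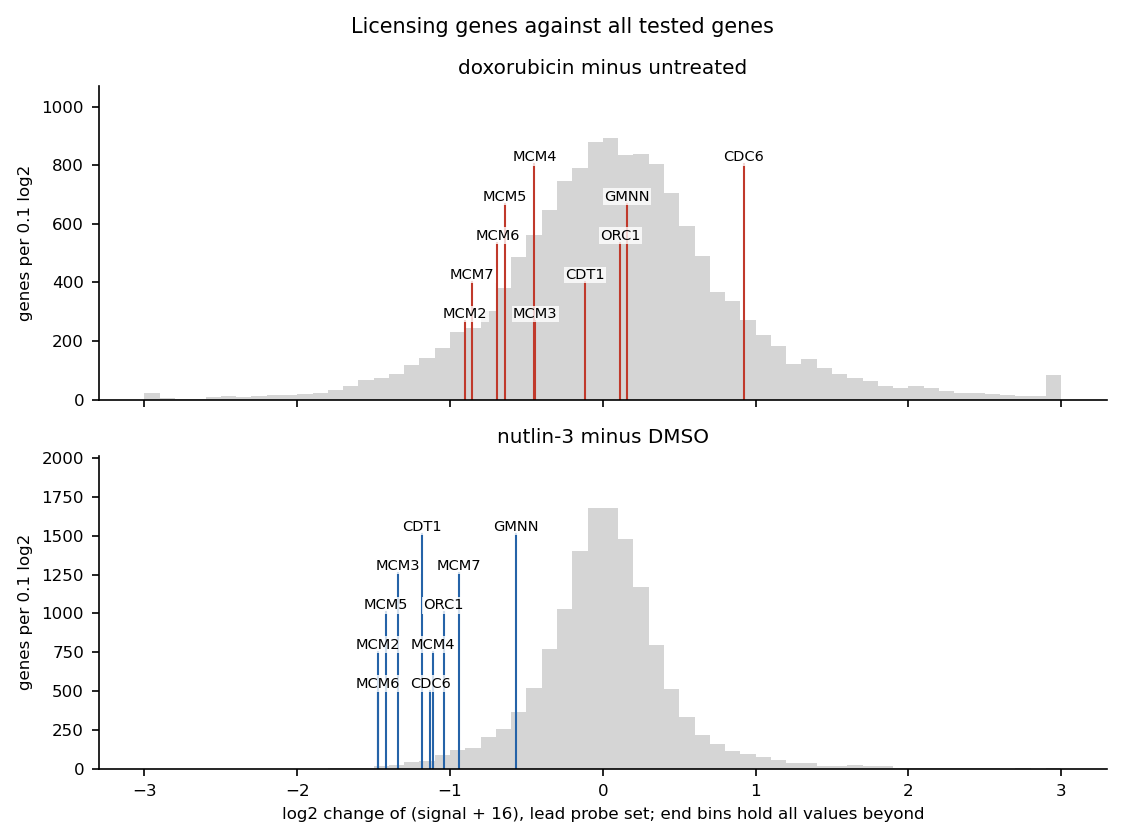
Number of genes per 0.1 log2 for the change of the lead probe set of all 13673 tested genes (grey bars), with the 10 licensing genes marked as vertical lines; the height of a line carries no value, and end bars hold all values beyond them. With nutlin-3 the licensing genes lie in the left flank (median -1.16 against 0.01 for all genes), and with doxorubicin they lie within the bulk (median -0.45 against 0.08).

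The 2 controls served as background for these changes. Of the 10 genes, 0 were called between DMSO and untreated cells by limma, where 13.1% of all genes were, although MCM7 (-0.21) and CDC6 (0.23) had an unadjusted p under 0.05. Lead probe sets moved by -0.21 to 0.32. Of these, MCM3, CDC6, CDT1 and ORC1 lay higher in DMSO with no overlap (18.7% of all genes did) and MCM7 lower (14.8%). So CDC6 rose with doxorubicin from the lower of its controls, and measured against DMSO its change was 0.69 (adjusted p = 9.8e-06).

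The probe sets of a gene mostly moved together. MCM4 had 5 probe sets. Those at 3932, 3433 and 3722 in untreated cells (212141_at) and at 1175, 1062 and 1276 (222037_at) changed by -1.18 and -1.36 with nutlin-3 (adjusted p = 1.0e-07 and 4.1e-06), and by -0.24 (SE 0.09, adjusted p = 0.040) and -0.54 (SE 0.15, adjusted p = 0.0059) with doxorubicin. The doxorubicin change of the first was called in 12 of 24 alternative settings. It was lost without untreated array 1 (-0.19, adjusted p = 0.14) or 3 (-0.23, adjusted p = 0.088), without doxorubicin array 1 (-0.18, adjusted p = 0.15) or 2 (-0.26, adjusted p = 0.0502), and without DMSO array 2 or 3 (-0.24 each, adjusted p = 0.0507 and 0.0529). A dimmer one (212142_at) gave 553, 388 and 456 in untreated cells and 419, 387 and 300 with doxorubicin, which overlapped (-0.32, SE 0.18, adjusted p = 0.15; -0.44 to -0.19 with 1 array left out; called with arrays centred on their medians at -0.50, adjusted p = 0.015), and it fell by 0.87 with nutlin-3 (adjusted p = 0.0025). The fifth (242479_s_at) was too dim for the main fit, with signals of 7.15 to 118, and it was higher on all 3 arrays of each agent than on those of its control. In a limma fit without the filter it went the other way from the rest. It was at 1.19 with doxorubicin (SE 0.40, adjusted p = 0.032) and 0.70 with nutlin-3 (SE 0.40, adjusted p = 0.39).

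For MCM5, the second probe set (201755_at) gave 693, 835 and 925 in untreated cells and 416, 447 and 412 with doxorubicin (-0.91, SE 0.12), and 664, 668 and 596 in DMSO and 243, 273 and 236 with nutlin-3 (-1.31, SE 0.12). Its difference between the agents was not called (0.40, interval 0.02 to 0.77, adjusted p = 0.10), unlike that of the lead. MCM7's second (208795_s_at) gave 6975, 6980 and 7005 against 4146, 5016 and 4702 with doxorubicin (-0.60, SE 0.08) and fell by 0.90 with nutlin-3. The second probe set of MCM6 was too dim for the main fit, at 9.32 to 83.2. In the limma fit without the filter it was at -0.94 with doxorubicin (adjusted p = 0.065) and -0.59 with nutlin-3 (adjusted p = 0.44).

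The 2 CDT1 probe sets disagreed between the controls. The lead (228868_x_at, of a kind that can hybridise with related sequences) was higher in DMSO than in untreated cells, at 2705 ± 147 against 2188 ± 416, a change that was not called (0.32, adjusted p = 0.31). The other (209832_s_at) gave 414, 461 and 357 in untreated cells and 274, 260 and 220 in DMSO, and was called lower (-0.67, SE 0.15, adjusted p = 0.0084), the only one of the 17 called in this comparison, against 7.84% of all tested probe sets. Without untreated array 1, the second MCM5 probe set was called lower as well (-0.44, adjusted p = 0.044). With doxorubicin CDT1 209832_s_at gave 397, 508 and 468, close to untreated cells (0.15, SE 0.15, adjusted p = 0.45) but 0.82 above DMSO (adjusted p = 2.9e-04). The lead 228868_x_at went the other way with doxorubicin against DMSO (-0.44, SE 0.19, adjusted p = 0.069). That change was not called, and the groups overlapped. The direction of CDT1 with doxorubicin against DMSO thus depends on the probe set. With nutlin-3 CDT1 209832_s_at gave 131, 160 and 127, and both CDT1 probe sets were lower than in DMSO on every array (-0.78, SE 0.15, adjusted p = 0.0016 for this one).

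Across the 12 arrays the lead probe sets of MCM2 to MCM6 followed each other closely, with Pearson correlations of 0.967 to 0.991, as a description over 4 groups that share the design. MCM7 correlated with them at 0.914 to 0.967. CDC6 followed GMNN (0.939) more than MCM7 (0.263). Among all genes, those most like the mean of the 6 MCM genes were CDCA3 (0.993), RRM2 (0.985), ATAD2 (0.984), POLD3 (0.982) and SGO2 (0.981). Those most like CDC6 were DONSON (0.989), DSCC1 (0.981) and RRM1 (0.977), most like GMNN FBXO5 (0.993), FAM111A (0.989) and DCLRE1B (0.987), most like ORC1 ZNF718 (0.942), ARHGAP44 (0.940) and POLE (0.938), and most like CDT1 FRY (0.933), TMEM237 (0.920) and EP300-AS1 (0.920).

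Genes of the surrounding pathway were set beside the licensing genes by their roles. Their counts are read against all genes, of which 29.0% were called higher and 24.8% lower with doxorubicin, and 11.0% higher and 12.5% lower with nutlin-3. Of 8 other ORC subunits and chromatin partners, 2 were called lower with nutlin-3 and none higher (median -0.21): MCMBP, which binds MCM proteins, at -0.71 (SE 0.09) and ORC3 at -0.65 (SE 0.11). With doxorubicin 2 were called higher and 5 lower (median -0.35), with ORC6 at 0.69 (SE 0.18), ORC4 at 0.42 (SE 0.09), KAT7, an acetyltransferase of origin chromatin, at -1.16 (SE 0.10) and ORC3 at -0.82 (SE 0.11). Of 3 other MCM family genes tested, MCM10 (-1.13, SE 0.09) and MCM8 (-0.90, SE 0.09) fell with nutlin-3, and MCM8 rose with doxorubicin (0.38, SE 0.09).

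The origin firing genes act after licensing. Of 14, 13 fell with nutlin-3 and none rose (median -0.83), led by CDC45, the helicase activator, from 2602 ± 47.4 to 1078 ± 58.5 (-1.26, SE 0.09) and GINS2 (-1.23, SE 0.12). With doxorubicin 3 rose and 6 fell (median -0.23), where 29.0% and 24.8% of all genes did: GINS4 rose by 0.96 (SE 0.13) and DONSON by 0.55 (SE 0.09), while WDHD1 fell by 0.93 (SE 0.12) and DBF4, the partner of the CDC7 kinase, by 0.79 (SE 0.13). The difference between the agents was called higher for 11 of the 14, against 20.2% of all genes, and lower for none.

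Of 13 genes for the turnover of licensing factors, 4 fell with nutlin-3 and none rose, with FBXO5 at -1.11 (SE 0.09) and DTL, the receptor that sends CDT1 to degradation, at -1.09 (SE 0.11). With doxorubicin 3 rose and 4 fell, shares near the 29.0% and 24.8% of all genes, so these counts are no result about the list. SKP2, the receptor of another ligase that acts on CDT1, fell from 4429 ± 656 to 1629 ± 190 (-1.43, SE 0.11), CUL4B fell by 1.34 (SE 0.09), and PCNA (0.68, SE 0.09) and DTL (0.36, SE 0.11) rose.

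Of the 5 cyclin and kinase genes of the G1 to S step, 4 fell with nutlin-3, among them CCNE2 (-1.10, SE 0.11) and CCNA2 (-1.02, SE 0.07), and CCND1 rose (0.90, SE 0.08). CCNE1, cyclin E1, rose with doxorubicin from 2953 ± 175 to 5598 ± 374 (0.92, SE 0.09), as did CCND1 (0.78, SE 0.08), while CCNA2 fell by 0.96 (SE 0.07). Of 13 E2F and pocket protein genes, 5 fell with nutlin-3 and 1 rose: E2F8 (-1.64, SE 0.11), E2F2 (-1.61, SE 0.14) and E2F7 (0.32, SE 0.08) are examples. With doxorubicin 4 of the 13 rose and 2 fell, against 29.0% and 24.8% of all genes, which is likewise no result about the list, with E2F7 at 0.82 (SE 0.08), RBL2 at 0.81 (SE 0.16), RBL1 at -0.90 (SE 0.11) and TFDP2 at -0.73 (SE 0.16). Every gene named in these lists with the word rise or fall or with a value had an adjusted p under 0.05 from limma.

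**Figure D4:**
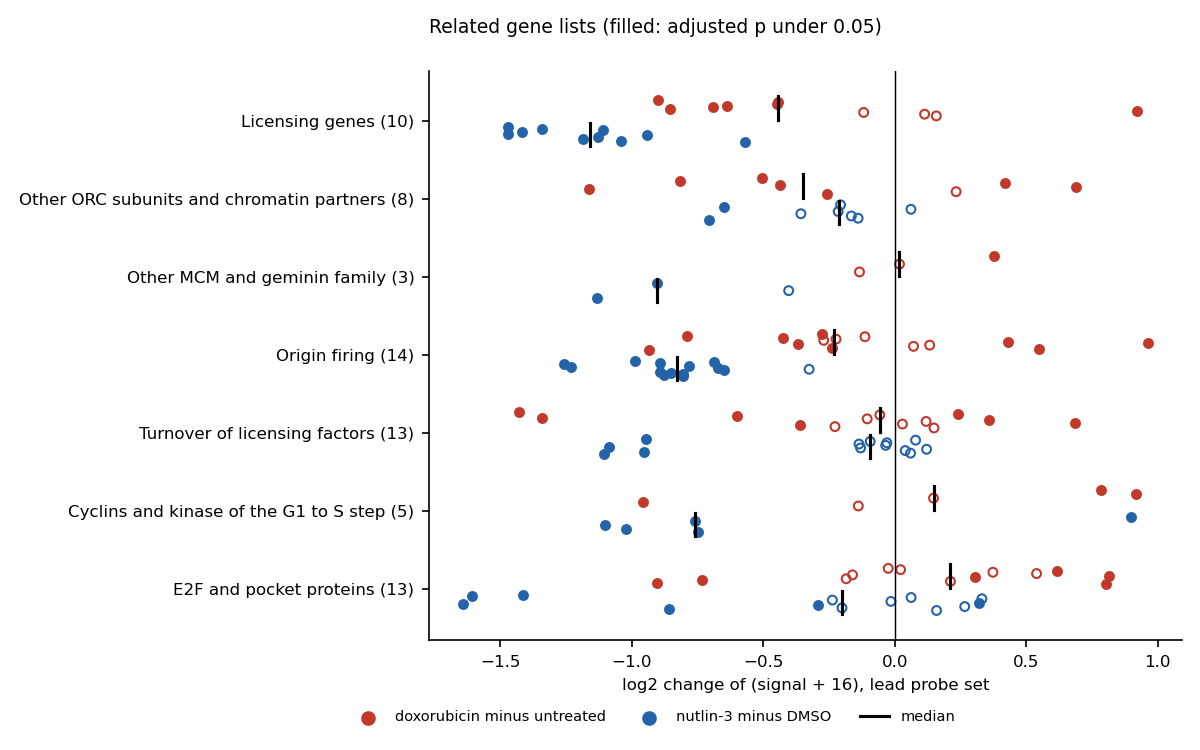
Log2 change of (signal + 16) of the lead probe set of each tested gene in the licensing set and 6 related lists, with numbers of genes in brackets; red is doxorubicin minus untreated, blue is nutlin-3 minus DMSO, filled points have an adjusted p under 0.05, and black bars are medians. Licensing and origin firing genes lie left of 0 with nutlin-3 (medians -1.16 and -0.83), and in both lists doxorubicin points lie on either side of 0.

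Since the genes moved together with nutlin-3 and most are known E2F targets, their promoters were read from RefSeq sequences of build GRCh38.p14, in windows of the 250 bases before each start. Windows were held for 8 of the 10 genes, 11 windows in all. Exact matches to the E2F-type letters TTTCCCGC, TTTCGCGC, TTTGCCGC and TTTGGCGC on both strands lay in 5 of the 11 windows, 1 each for MCM3, MCM6, MCM7, CDT1 and GMNN. Of all 35116 promoter windows, 2.79% held a match, and among those of tested genes 3.96%. TTTGAA or TTCGAA, letters of the cell cycle homology region, matched in 1 of the 11 (MCM6), against 14.3% of all windows. TTTGGCGC and TTTCGCGC on opposite strands overlap in MCM6, where they form 12-base blocks. A match is a description of letters, not of binding.

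MCM6 and MCM2 shared the largest fall with nutlin-3 (-1.47 each), and the MCM2 window held no exact E2F-type match. The MCM6 window is shown whole because it holds 2 such blocks of overlapping matches, in capitals, at 152 to 141 and 90 to 79 bases before the start. It lies at chr2:135876444-135876693 on the minus strand, overlaps no annotated gene, and reads 5′ to 3′ in the direction of the gene.
MCM6: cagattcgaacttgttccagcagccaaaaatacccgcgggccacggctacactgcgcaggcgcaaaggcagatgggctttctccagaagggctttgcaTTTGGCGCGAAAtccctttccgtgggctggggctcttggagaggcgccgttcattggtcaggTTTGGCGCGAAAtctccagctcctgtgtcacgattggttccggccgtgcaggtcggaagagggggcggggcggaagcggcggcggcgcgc

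The other matches are shown with their flanks, again with the matched letters in capitals and in the direction of the gene. They lie at chr6:52284900-52284925 (minus strand, 174 to 167 bases before the start) for MCM3, at chr16:88803745-88803770 (plus strand, 35 to 28) for CDT1, at chr6:24775324-24775349 (plus strand, 80 to 73) for GMNN, and at chr7:100101568-100101593 and chr7:100101398-100101415 (minus strand, 187 to 180 and 9 to 2) for MCM7. The MCM7 window with these matches overlaps another gene, AP4M1, and the GMNN window overlaps GMNN itself. Those of MCM3 and CDT1 overlap no annotated gene.
MCM3: gatggtacgTTTCCCGCcaccgcggg
CDT1: agggcgcccGCGGGAAAtttggcggg
GMNN: tgggtcggtTTTGGCGCgctctcact
MCM7, far: gctcggaccGCGGGAAAcccggcgcc
MCM7, near: ggggcgacgTTTCGCGCc

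The CDC6 window is shown because CDC6 was the licensing gene that rose with doxorubicin. None of the searched letters are in it, which says only that these exact letters are not in this window. The window does hold tttggcgg, which differs from the searched TTTGGCGC in its last letter alone. It lies at chr17:40287629-40287878 on the plus strand and overlaps no annotated gene.
CDC6: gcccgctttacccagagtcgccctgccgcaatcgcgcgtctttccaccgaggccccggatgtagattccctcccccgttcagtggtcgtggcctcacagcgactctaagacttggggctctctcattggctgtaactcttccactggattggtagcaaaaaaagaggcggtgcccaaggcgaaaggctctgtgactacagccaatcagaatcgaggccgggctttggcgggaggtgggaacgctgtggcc

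MCM2 and ORC1 also had no exact match in their windows. The ORC1 window holds attggcgc, which differs from TTTGGCGC in its first letter alone, so a near match is not particular to CDC6. Near matches were not counted over all windows. Every licensing gene fell with nutlin-3, so the direction of change cannot separate genes with a match from genes without. A link between matches and changes was not tested.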

How the data were processed

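Transcript levels in 12 U2OS arrays, 4 groups of 3 by title, were analysed. The authors deposited a linear intensity for each probe set on each array, made with MAS5 per the submitters' processing notes; version and settings are not given in the sources used here. Trimmed means (2% at each end) were 500.06 to 500.07 on every array, medians 79.6 to 113.6. No detection calls were used. Array number limits the precision.

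Signals became log2(signal + 16), so changes of dim genes are understated. Of 54675 probe sets, 62 controls and those under the 40th percentile were left out. limma 3.58.1 in R 4.3.3 (lmFit, eBayes with trend, 4 group means, no block) was used, with Benjamini-Hochberg adjustment over 32768 probe sets, and was tested on simulated data. Gene symbols were updated through the gene identifier to RefSeq GRCh38.p14. Control ratios were compared by exact 2-sided permutation.

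The members and gene lists were chosen with earlier results of these data known. Named were every member probe set, MDM2 and CDKN1A, for each agent up to 2 called rises and 2 called falls per list, and the 5 genes most correlated with the MCM mean and 3 with each other member. Alternatives covered scaling, pseudocount, filter, probe sets, trend, array weights, arrays in the fit, replicate block, left-out arrays, threshold, control group and 1 doxorubicin array alone.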

Additional observations from a re-analysis of the deposited data

Results flagged for a closer look

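The doxorubicin response minus the nutlin-3 response differed from 0 in the limma fit (adjusted p under 0.05) for 9 licensing genes, which is why they are listed: MCM2 by 0.57, MCM3 by 0.90, MCM4 by 0.66, MCM5 by 0.78, MCM6 by 0.78, CDC6 by 2.05, CDT1 by 1.07, ORC1 by 1.15 and GMNN by 0.73 on the log2 scale. For CDC6 the sign of the response itself differed, 0.92 with doxorubicin and -1.13 with nutlin-3. No group of 3 arrays was tested for a single array far from the others.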

How the results depend on the processing

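All 230 values of the 10 lead probe sets with nutlin-3, over the alternatives run, kept their direction and an adjusted p under 0.05 (highest 0.0051), and so did all 384 values of the 17 tested probe sets (highest 0.019). Over every comparison, 1530 of 1570 probe set values kept direction and side of the threshold, 15 reversed, 15 lost and 10 gained a call. Another filter, no trend, the replicate block or a left-out array of an uninvolved group cannot move a change, only its p. Part of the kept directions was therefore fixed in advance. Licensing genes called were 7, 10, 9 and 0 (doxorubicin, nutlin-3, difference, DMSO against untreated) without any 1 array. Requiring at least 2-fold left 0 for doxorubicin, 8 for nutlin-3 and 3 for the difference; all probe sets then numbered 4856, 1170, 3969 and 697 (DMSO against untreated). An adjusted p under 0.01 gave 3572 probe sets for nutlin-3, 6258 for the difference and 1862 for DMSO against untreated, and testing 1 lead probe set per gene gave 7616, 3613, 5396 and 1930 in the 4 comparisons, since fewer are tested. Leaving out 1 array moved the DMSO count between 2451 and 4919 (2703 without untreated array 1, 2678 and 2451 without DMSO arrays 2 and 3), against 4409.

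Median centring moved the median change of all probe sets from 0.03 to -0.14 with doxorubicin, from 0.04 to -0.12 for the difference and from -0.02 to 0.11 for DMSO against untreated, and the higher calls' share of all calls from 49.8% to 33.8%, from 50.8% to 34.7% and from 41.7% to 64.3%. It reversed ORC1 (-0.065), CDT1 209832_s_at (-0.028) and GMNN (-0.020) with doxorubicin, MCM7 210983_s_at for the difference (-0.069), and MCM2 (0.040), GMNN (0.11) and MCM4 222036_s_at (0.077) for DMSO against untreated, none of them called. Other reversals, also of uncalled values, were GMNN in DMSO without untreated array 3 (0.013; -0.050 to 0.013 over the left-out arrays), CDT1 228868_x_at with doxorubicin without doxorubicin array 2 (0.076; -0.35 to 0.076), ORC1 (-0.17) and MCM4 212142_at (0.013) with doxorubicin against DMSO, and, with doxorubicin array 1 alone (a fit whose spread comes from the other groups), ORC1 (-0.016), CDT1 209832_s_at (-0.041), CDT1 228868_x_at (0.34) and MCM7 210983_s_at for the difference (-0.042). The cause was not tested.

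The replicate number as a block gave 15975, 6486, 10635 and 5182 probe sets, against 15408, 5840, 9888 and 4409 without it. Licensing genes called were again 7, 10, 9 and 0. Deviations of same-numbered arrays correlated at -0.07 to -0.03 for doxorubicin and untreated cells, and at 0.01 to 0.20 for nutlin-3 and DMSO. Arrays with different numbers were not compared, and the number was not taken as pairing.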
